A study of Mus musculus with 8 samples.

Results

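T cells of the epidermis were picked out of 6 SORT-seq plates of sorted mouse skin epidermis by their own transcripts. A well of a plate counted as a T cell when it held at least 1000 transcripts, at least 4 transcripts of Cd3d, Cd3e, Cd3g and Cd7 together, and less than 1% of its transcripts from the basal keratins Krt5 and Krt14. Of 2304 wells, 1109 passed the minimum of 1000 transcripts and 67 of these were T cells. They were compared with 950 other wells, those that passed the minimum and held less than 10% of their transcripts from Kcnq1ot1. This nuclear RNA was one of the markers by which the study's methods removed necrotic cells, and the limit was not set on T cells. The values of these wells chose the T cells, so every contrast of T cells with other wells below is a description without a test.

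T cells of mouse epidermis lie between keratinocytes and extend processes along them. Most of the resident ones, the dendritic epidermal T cells, carry a gamma-delta antigen receptor of little diversity, settle before birth and then renew in place. An antigen receptor reaches the surface together with the CD3 chains (CD3 gamma, delta, epsilon and the zeta chain encoded by Cd247), whose tails are phosphorylated by the kinase LCK. Langerhans cells, which present antigen on MHC class II, are the other leukocytes that reside in this epithelium.

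All mice were adults on a C57BL/6 background and carried the Troy-EGFP-IRES-CreERT2 allele, in which the Troy (Tnfrsf19) locus drives EGFP and a tamoxifen-inducible Cre in place of TROY. The back skin sorted for both plate types was in telogen. The 4 Troy-EGFP plates had this genotype alone. The 2 traced plates came from mice homozygous for both Troy-EGFP-IRES-CreERT2 and Rosa26-LSL-tdTomato, a reporter that Cre turns on, which were given 1 injection of 5 mg of tamoxifen and sorted 7 days later. Troy-EGFP mice were 7 to 9 weeks old at sorting, and traced mice were of that age at the injection. Only males were used for the traced plates, and mice of both sexes elsewhere. Bulk CEL-Seq2 libraries came from all viable (DAPI-) cells, and from the ITGA6bright cells with and without EGFP, of 2 further Troy-EGFP mice. Cells of the Troy-EGFP plates were sorted through 3 gates, ITGA6-, ITGA6bright EGFP- and ITGA6bright EGFP+, and those of the traced plates by ITGA6, EGFP and tdTomato. No gate selected for a T cell marker, and the labels assign no well to a gate. Genotype, tamoxifen, gates and, in part, sex differ together between the plate types, so their parts in any difference cannot be told apart.

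SORT-seq counts the 3' end of each RNA through a random barcode, so levels do not scale with gene length. Values were estimated transcripts, and levels are given as transcripts per 1000000 (CPM) of the summed T cells, or of the summed other wells, of a plate. T cells held 1010 to 12521 transcripts, with a median of 1815, against a median of 3174 in the other wells. The median number of genes with a transcript was 989 in T cells and 1315 in the other wells. On the 5 plates with T cells, their median total was 0.498 to 0.714 of that of the other wells.

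The values that the selection used were graded. The 4 selecting genes had 4 to 76.3 transcripts in a T cell, with a median of 26.0. Krt5 and Krt14 took 0 to 0.594% of its transcripts, and 0 wells with enough T cell transcripts were refused for keratin. Just outside the cutoff lay 2 wells with 3 transcripts of the 4 genes, and just inside lay 2 wells with 4 and 2 wells with 5. Thy1, which the rule did not use, had 2.00 and 6.00 transcripts in the wells just outside, 7.01 and 2.00 in those with 4, and 0 and 10.01 in those with 5.

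The CD3 gamma, delta and epsilon genes lie together on chromosome 9, and the first 3 windows shown are theirs, since their transcripts defined the cells. The other 3 belong to genes whose level in T cells is described below: Lck, the chemokine gene Xcl1 and the granule gene Nkg7. Each run is the 250 bases before a transcript start, taken from RefSeq sequence on GRCm38.p6, written 5' to 3' on the strand of the gene. Capitals mark AGGAAG, the core bound by Ets factors, and TGTGGT, the core bound by Runx factors, on either strand (read as CTTCCT and ACCACA on the other). The motifs were chosen after the sequences had been read.
Cd3g, chr9:44980432-44980681, minus strand: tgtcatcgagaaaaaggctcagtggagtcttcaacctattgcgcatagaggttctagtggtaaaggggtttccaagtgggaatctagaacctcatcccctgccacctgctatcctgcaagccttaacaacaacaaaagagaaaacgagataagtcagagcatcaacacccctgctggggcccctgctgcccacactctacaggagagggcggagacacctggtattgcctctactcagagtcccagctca
Cd3d, chr9:44981536-44981785, plus strand: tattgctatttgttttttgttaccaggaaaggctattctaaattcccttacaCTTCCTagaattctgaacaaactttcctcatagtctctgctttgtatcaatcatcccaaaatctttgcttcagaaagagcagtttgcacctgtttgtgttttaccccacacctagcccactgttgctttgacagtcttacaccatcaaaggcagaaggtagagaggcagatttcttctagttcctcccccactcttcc
Cd3e, chr9:45009612-45009861, minus strand: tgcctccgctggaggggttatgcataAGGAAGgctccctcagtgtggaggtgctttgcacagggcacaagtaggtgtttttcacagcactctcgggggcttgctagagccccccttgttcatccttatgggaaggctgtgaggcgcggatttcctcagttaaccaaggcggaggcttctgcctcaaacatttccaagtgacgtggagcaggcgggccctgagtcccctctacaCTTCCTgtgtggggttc
Lck, chr4:129573642-129573891, minus strand: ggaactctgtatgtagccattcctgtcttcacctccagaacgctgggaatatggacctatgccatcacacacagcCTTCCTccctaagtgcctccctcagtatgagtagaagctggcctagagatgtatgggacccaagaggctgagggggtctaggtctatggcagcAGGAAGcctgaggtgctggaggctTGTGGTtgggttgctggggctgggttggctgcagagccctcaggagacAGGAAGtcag
Xcl1, chr1:164935523-164935772, minus strand: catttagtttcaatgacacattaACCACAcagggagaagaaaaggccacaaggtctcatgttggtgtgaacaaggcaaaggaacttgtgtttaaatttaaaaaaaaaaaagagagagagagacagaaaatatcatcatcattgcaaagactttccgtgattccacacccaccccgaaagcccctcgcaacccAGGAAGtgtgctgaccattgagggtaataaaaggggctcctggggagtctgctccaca
Nkg7, chr7:43436888-43437137, plus strand: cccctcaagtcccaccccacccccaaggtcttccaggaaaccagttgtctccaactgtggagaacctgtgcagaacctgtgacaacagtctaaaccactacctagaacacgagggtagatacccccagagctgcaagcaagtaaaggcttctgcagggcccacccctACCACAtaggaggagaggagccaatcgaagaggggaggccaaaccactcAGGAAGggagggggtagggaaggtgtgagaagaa

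The starts of Cd3g and Cd3d lie 1355 bases apart on opposite strands, and that of Cd3e lies 27825 bases from that of Cd3d. AGGAAG occurred in the Cd3d window 198 bases before the start and in the Cd3e window 224 and 17 bases before it, whereas the Cd3g window held none of the letters searched. The Lck window shown had 3 Ets cores, 175, 82 and 10 bases before the start, and a Runx core at 58 bases. Another start of Lck had a window with 1 Ets core, 114 bases before it, and 0 Runx cores. Xcl1 and Nkg7 had 1 of each. Among the 30 leading T cell genes defined below, 21 matched a RefSeq window, and 16 of the 21 (76.2%) had AGGAAG in at least 1 window, against 32.3% of 27018 genes. TGTGGT was found in 8 of the 21 (38.1%), against 15.9% of all genes. Since some genes have several starts, the shares per window were lower, 64.5% of 31 windows against 29.5% of 32841 for AGGAAG, and 25.8% against 14.05% for TGTGGT. The E box letters CAGCTG were found in 2 of the 21 (9.52%), against 14.7%. These are matches of letters, and no binding was measured here.

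T cells were found on 5 of the 6 plates. The Troy-EGFP plates gave 0, 5, 11 and 26 T cells and the traced plates 11 and 14. As a share of T cells plus other wells, this was 0% of 27 wells on Troy-EGFP 1, where a count of 0 allows up to 12.8% (95% exact binomial interval). The share was 4.07% (95% exact binomial interval 1.33 to 9.23) on Troy-EGFP 2, 5.73% (2.89 to 10.02) on Troy-EGFP 3 and 10.6% (7.02 to 15.1) on Troy-EGFP 4. It was 4.80% (2.42 to 8.43) on traced 1 and 7% (3.88 to 11.5) on traced 2. Intervals and the bound of a 0 cover counting error only. The traced plates thus lay inside the range of the Troy-EGFP plates.

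The mean share was 5.90% ± 1.55 (SD, n = 2) on traced plates and 5.09% ± 4.37 (SD, n = 4) on Troy-EGFP plates. The difference of 0.811 percentage points was smaller than the spread between plates (two-sided exact permutation test, p = 0.733, n = 2 and 4). With 15 possible assignments the smallest p of this design is 0.0667. The direction turned without Troy-EGFP 1 (-0.886), without traced 2 (-0.287), and when other wells were limited to the well numbers described next (-3.16). A sorted share is set by the gates and by the wells given to each gate, so it is no estimate of the share of T cells in skin.

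The T cells sat in particular wells. On the Troy-EGFP plates, 42 of 42 T cells were in wells whose number is divisible by 3, as were 126 of 546 other wells (23.1%). On the traced plates, 25 of 25 were in wells whose number leaves a remainder of 0, 5, 6 or 7 on division by 8, as were 145 of 404 other wells (35.9%). These divisors were chosen after the T cells had been located, so the counts carry no test. Within the wells divisible by 3, T cells made up 0, 16.7, 19.0 and 36.6% on the 4 Troy-EGFP plates. Itga6, the gene of the sorted integrin, stood at 918, 155, 33.2 and 15.7 CPM in the other wells divisible by 3 on Troy-EGFP 1 to 4. It stood at 671, 960, 200 and 138 CPM in those with a remainder of 1, and at 391, 186, 163 and 121 CPM in those with a remainder of 2. The wells divisible by 3 were thus lowest in Itga6 on the 3 Troy-EGFP plates with T cells and highest on Troy-EGFP 1, which had none. On traced 1 and 2 the order was mixed, and remainders with T cells had 36.1 to 432 CPM in other wells. Remainders 1 to 3, without T cells, had 426 to 600 CPM, and remainder 4, also without, had 104 and 82.3 CPM. No T cell on any plate held an Itga6 transcript (0 of 67; 95% exact interval up to 5.36%), and Tnfrsf19, the gene of TROY, had a transcript in 1 of 67.

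**Figure D1:**
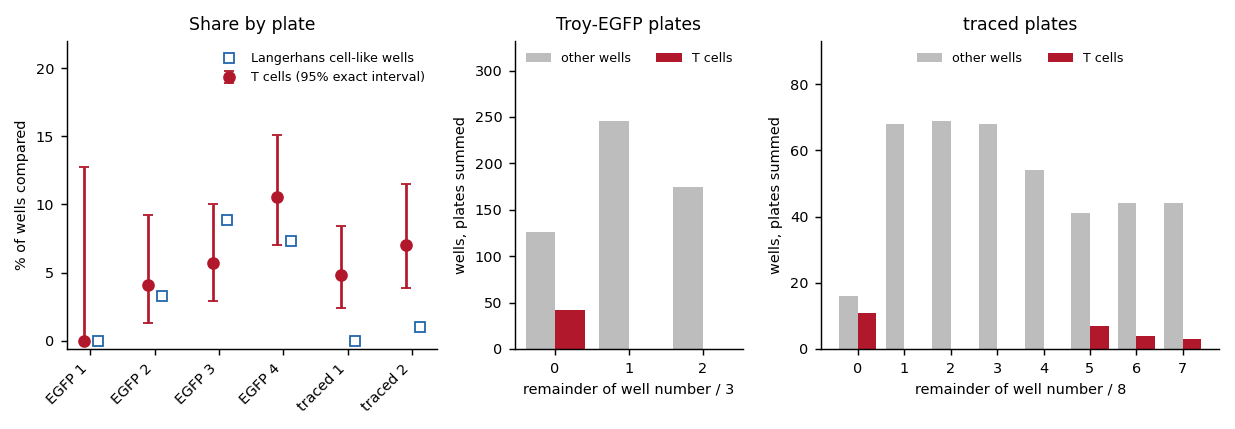
Left, the share of T cells (circles, with 95% exact binomial intervals) and of Langerhans cell-like wells (squares) on each plate, in percent of T cells plus other wells. Middle and right, bars count T cells and other wells by the remainder of the well number on division by 3 (Troy-EGFP plates summed) or by 8 (traced plates summed): the 42 T cells of Troy-EGFP plates lie at remainder 0, and the 25 of traced plates at 0, 5, 6 and 7.

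Of the 7 markers given for these cells, Cd3g, Cd3e and Cd7 are selecting genes, so the label was looked at in the other 4, Thy1, Xcl1, Gzmc and Nkg7. All 4 were at least 2-fold higher in T cells than in other wells on 5 of 5 plates, and their summed level was 5286 to 14979 CPM in T cells against 38.9 to 147 CPM in other wells. At least 2-fold here means a mean difference of at least 1 on the log2(CPM + 20) scale, with the same direction on each plate. Such a pattern was seen for 5.23% of the 8264 genes that reached a mean of 20 CPM in either class, and the opposite one for 17%. Gzmc had transcripts in 11 of the 67 T cells. The antigen receptor chains themselves could not be looked at, since 0 rows carried a symbol of an alpha, beta, gamma or delta chain. The name dendritic epidermal T cell therefore was not tested.

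Leading genes were the 30 with the largest mean difference on the log2(CPM + 20) scale. They were taken among genes that had a transcript in at least 25% of T cells and in the T cells of at least 4 plates. Their differences ran from 4.55 to 7.52, and the plain ratio of mean levels from 28.6-fold to 1168-fold, with a median of 171-fold. Each had a transcript in 40.3 to 98.5% of T cells. They include the 4 selecting genes. The lowest T cell plate lay above the highest plate of other wells for 30 of 30, and for 4.4% of the 8264 genes, but the 30 were chosen on this difference, so nothing is read from that count. The ranks beyond the cutoff carry on without a gap: Ctla2b at rank 30 differed by 4.55, and Vim and Cd52 just outside by 4.53 and 4.52.

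**Figure D2:**
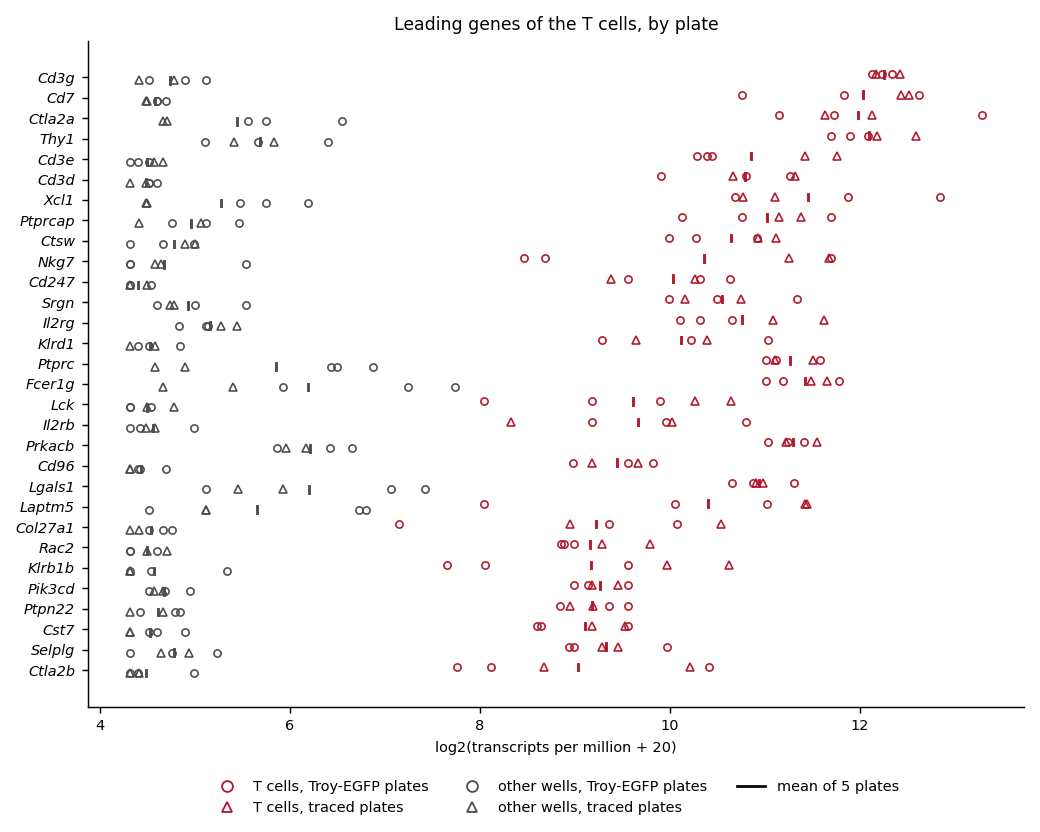
Levels of the 30 leading genes on the log2(CPM + 20) scale, with 1 point per plate (circles for Troy-EGFP, triangles for traced) for T cells in red and other wells in grey, and a bar at the mean of the 5 plates. For each gene the red points lie to the right of the grey ones.

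The CD3 chains were the base of the selection. Cd3g, the gamma chain, stood at 4788, 5169, 4471, 4593 and 5489 CPM on Troy-EGFP 2 to 4 and traced 1 and 2, a mean of 4902 ± 422 (SD, n = 5), against 7.24 CPM in other wells. Of all leading genes it had a transcript in the most T cells, 66 of 67. Cd3d, the delta chain, had 1860 ± 657 CPM and Cd3e, the epsilon chain, 2019 ± 1007 CPM (SD, n = 5 each), against 2.54 and 2.60 CPM in other wells. They had transcripts in 60 and 52 of 67 T cells.

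The signalling partners of the receptor were present too. Cd247, the zeta chain, reached 736, 1574, 1260, 649 and 1210 CPM, against 0 to 3.29 CPM in other wells. Fcer1g, a gamma chain shared by Fc receptors that can take the place of the zeta chain, reached 2790 ± 600 CPM (SD, n = 5), above Cd247 on each plate. Other wells had 41.2, 193 and 131 CPM of it on Troy-EGFP 2 to 4, whose other wells include 39 Langerhans cell-like ones (described below), and 22.3 and 5.33 CPM on the traced plates, with 2 such wells. Lck stood at 245, 934, 562, 1212 and 1588 CPM, with at most 7.43 CPM in other wells, and was lowest on Troy-EGFP 2, which had the fewest T cells.

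The list of 25 genes of CD3 and receptor signalling holds the 4 selecting genes, which are left out of its counts. Of the other 21, 17 reached 20 CPM in either class, of which 10 were at least 2-fold higher on 5 of 5 plates and 0 lower. The median difference of the 17 was 3.82 on the log2(CPM + 20) scale, against -0.18 for all 8264 genes. The adaptors Skap1 and Lcp2 had 293 ± 60.0 and 259 ± 208 CPM (SD, n = 5 each). Ptpn22, a phosphatase that restrains LCK, had 572 ± 120 CPM. The kinase Zap70 and the adaptor Lat were each listed at 0 in the T cells of 1 plate, Zap70 on Troy-EGFP 2 with 5 T cells and Lat on Troy-EGFP 3 with 11, and reached 334 to 885 and 197 to 945 CPM on the others. Cd5, a receptor that dampens T cell signalling, had 0 transcripts in 67 cells.

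Surface and leukocyte genes of T cells ranged from abundant to absent. Cd7, a selecting gene, had 4605 ± 1909 CPM (SD, n = 5) with 1717 CPM on Troy-EGFP 2 and 3634 to 6304 CPM on the other plates. Thy1, a surface glycoprotein of mouse T cells that the rule did not use, had 3806, 4332, 3312, 4635 and 6172 CPM, against 14.4 to 64.7 CPM in other wells, and a transcript in 65 of 67 T cells. Ptprc, which encodes the leukocyte phosphatase CD45, had 2481 ± 459 CPM, and Ptprcap, the CD45-associated protein, had 2203 ± 843 CPM (SD, n = 5 each). Cd2, an adhesion receptor, had transcripts in 31 T cells, whereas Cd6, Cd27 and Cd28, which encode surface receptors of many alpha-beta T cells, had transcripts in 1 T cell each.

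Genes that divide alpha-beta T cells into subsets were nearly empty. Cd4 and Foxp3 had 0 transcripts in 67 T cells, and a share of up to 5.36% of cells with a transcript is allowed by a count of 0 of 67 (95% exact interval). Il2ra, a receptor chain for interleukin 2, was found in 7 cells, Cd8b1 in 2 and Cd8a in 1. The cell with Cd8a, on Troy-EGFP 4, had 7.01 transcripts of Cd8a and 2.00 of Cd8b1 among 4416, with 4.00 of Cd3e and 9.01 of Thy1 but 1 each of Cd3g, Cd3d and Cd7. It had no transcript of Fcer1g, Klrk1, Xcl1 or Ctla2a. It was singled out after its values were seen.

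Xcl1, a chemokine for cross-presenting dendritic cells, was the one cytokine or chemokine gene of its list to pass in all plates. It stood at 7369, 3744, 1625, 1732 and 2194 CPM, against 2.48 to 52.9 CPM in other wells, and Troy-EGFP 2 was the highest plate on both sides. Of 22 genes in the list of cytokines, chemokines and growth factors, 20 had a row, 6 reached 20 CPM in either class and 1, Xcl1, was at least 2-fold higher on 5 of 5 plates. Ifng had a transcript in 2 T cells, Tnf in 6, Il17a in 1, Ccl5 in 1 and Fgf7, a keratinocyte growth factor, in 1. Tgfb1, Areg, Igf1, Fgf10, Il22, Ccl3 and Ccl4 had 0 in 67 cells. At a median of 1815 transcripts per cell, such counts do not show that a gene was silent.

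Granule genes split into broad and sparse ones. Srgn, the proteoglycan that packs granules, had 1566 ± 626 CPM and Ctsw, a cathepsin of cytotoxic cells, 1657 ± 515 CPM (SD, n = 5 each), with transcripts in 55 and 57 of 67 T cells. Nkg7, a granule membrane protein, stood at 3313, 393, 334, 2425 and 3254 CPM, so Troy-EGFP 3 and 4 were low and the other plates high. Ctla2a and Ctla2b, which encode cysteine protease inhibitors, had 4649 ± 3080 and 673 ± 544 CPM and were highest on Troy-EGFP 2, with 9976 and 1349 CPM. They are close paralogs, and reads from shared stretches may have been split between them.

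Granzyme and perforin transcripts were found in a minority of the T cells. Gzmc, a given marker, had transcripts in 11 of 67 T cells, 1, 2, 1, 4 and 3 of them on the 5 plates in the order above. Of its 111 transcripts, 72.6 were in 1 cell of traced 1. The level on that plate was 3748 CPM with that cell and 735 CPM without it, and the mean over plates 1006 and 403 CPM. Prf1, perforin, had transcripts in 10 cells and Gzmb in 1, while Gzma, Gzmm and Fasl had 0. Of 18 genes in the list of granule and killing genes, 7 reached 20 CPM in either class and 4 were at least 2-fold higher on 5 of 5 plates: Gzmc, Nkg7, Srgn and Ctsw.

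Receptors shared with natural killer cells were a further group. Klrd1, which encodes CD94, had 1195 ± 576 CPM (SD, n = 5) and transcripts in 49 of 67 T cells. Klrk1, which encodes the activating receptor NKG2D, had 345 ± 189 CPM, and Hcst, its adaptor DAP10, 307 ± 162 CPM (SD, n = 5 each). The other adaptor of NKG2D, Tyrobp (DAP12), was found in 4 T cells, at 368, 98.3, 15.2, 130 and 0 CPM, while Langerhans cell-like wells had 1645 CPM. Amica1, which encodes the junctional adhesion molecule-like protein JAML, had 341 ± 105 CPM, and Cd96 had 693 ± 165 CPM (SD, n = 5 each). Of the 24 genes listed, 13 reached 20 CPM in either class and 6 were at least 2-fold higher on 5 of 5 plates.

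Homing and cytokine receptor genes included those of residence in epithelium. Itgae, the alpha E integrin that binds E-cadherin on keratinocytes, stood at 1594, 246, 562, 865 and 378 CPM, against 2.66 to 23.5 CPM in other wells. Cxcr6 had 368, 147, 197, 909 and 1210 CPM, and Selplg, a selectin ligand, 646 ± 207 CPM (SD, n = 5). Of 23 homing genes, 14 reached 20 CPM in either class and 6 were at least 2-fold higher on 5 of 5 plates, whereas Ccr9, Ccr10, Cxcr4 and Gpr15 had 0 transcripts in 67 cells. Of 15 cytokine receptor genes, 11 reached 20 CPM in either class, 2 (Il2rb and Il2rg) were at least 2-fold higher on 5 of 5 plates and 1 (Ifngr1) lower, with a median difference of 0.79 on the log2(CPM + 20) scale. Il2rb and Il2rg, the receptor chains for interleukins 2 and 15, had 927 ± 558 and 1848 ± 832 CPM (SD, n = 5 each). Il7r was seen in 4 T cells and Il23r in 0.

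Of 24 transcription factors listed, 18 reached 20 CPM in either class, and 4 were at least 2-fold higher on 5 of 5 plates: Id2, Runx3, Ikzf1 and Ets1. Ets1 had 571 ± 213 CPM in T cells and 15.5 CPM in other wells, and Runx3 638 ± 187 and 27.1 CPM (SD of T cells, n = 5 each). The 2 that were at least 2-fold lower on 5 of 5 plates, a smaller share than the 17% of all genes, were Gata3 and Bcl11b. Gata3 had 266 ± 201 CPM in T cells and 1022 CPM in other wells, and Bcl11b 146 ± 135 and 252 CPM (SD of T cells, n = 5 each). Both are known in keratinocytes as well as in T cells. Tbx21, Eomes and Lef1 had 0 transcripts in 67 T cells.

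Of 21 activation and immediate early genes listed, 19 reached 20 CPM in either class, with a median difference of 0.03 on the log2(CPM + 20) scale. Of the 19, 3 (Rgs1, Rgs2 and Btg2) were at least 2-fold higher on 5 of 5 plates, against 5.23% of all genes, and 4 (Egr2, Dusp1, Hspa1a and Hspa1b) at least 2-fold lower, a share near the 17% of all genes. Rgs1, which damps chemokine receptor signalling, had 498 ± 226 CPM (SD, n = 5), against 3.34 CPM in other wells. Of 13 leukocyte cytoskeleton and membrane genes, 11 were at least 2-fold higher on 5 of 5 plates, among them Rac2, Coro1a and Laptm5. Coro1a and Laptm5 were also found in Langerhans cell-like wells (described below). Of the 30 leading genes, Col27a1, a fibrillar collagen gene, had 123, 639, 1063, 476 and 1475 CPM and transcripts in 37 of 67 T cells.

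Leukocyte genes were in part shared with Langerhans cells. The 41 Langerhans cell-like wells, named from at least 20 transcripts of Cd74, H2-Aa, H2-Ab1 and H2-Eb1 and low keratin, lay 0, 4, 17 and 18 on the Troy-EGFP plates and 0 and 2 on the traced ones, and are counted among the other wells. On Troy-EGFP 3 and 4, where both could be summed, Ptprc had 673 and 1031 CPM in Langerhans cell-like wells and 3051 and 2050 CPM in T cells. Fcer1g had 2235 and 1494 CPM against 3495 and 2051 CPM in T cells, and Cd52 1702 and 1771 CPM against 2017 and 1658 CPM. Laptm5 had 993 and 1032 against 2066 and 1048 CPM, and Coro1a 851 and 970 against 1082 and 866 CPM. Lcp1 and Vim were higher in Langerhans cell-like wells on both plates. Lcp1 had 1046 and 1759 CPM against 443 and 547 CPM in T cells, and Vim 6614 and 7186 against 5713 and 5792 CPM. Srgn and Cd3e had 0 transcripts in Langerhans cell-like wells of both plates. Cd207, which encodes langerin, had 1773 and 1709 CPM there and 0 and 30.3 CPM in T cells, and Cd74 had 11657 and 12927 CPM against 0 and 15.2 CPM. MHC class II genes reached 246 to 590 CPM in the T cells of Troy-EGFP 3, as against 21604 to 31170 CPM in Langerhans cell-like wells of that plate. Counted without the Langerhans cell-like wells among the other wells, 24 of the 30 leading genes were kept.

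Keratinocyte transcripts were present at a low level in T cells. All 15 keratinocyte markers listed were at least 2-fold lower on 5 of 5 plates, with a median difference of -4.25 on the log2(CPM + 20) scale, and their sum was 1248 to 2999 CPM in T cells against 24996 to 36753 CPM in other wells. Dsg3 and Itgb4 were at 0 in T cells. Lgals7 had 404 CPM in T cells, 571 CPM in Langerhans cell-like wells and 4058 CPM in other wells, and Dsp 486, 333 and 3612 CPM. With each cell thinned to 1000 transcripts, Lgals7 was found in 40.3% of T cells (53.7% before thinning) and in 91.2% of 908 other wells without Langerhans cell-like wells (98.3% before). Whether these transcripts came from free RNA or from the cells was not tested. Markers of other cell types were near 0: the summed level in T cells was at most 37.8 CPM for melanocytes, 49.2 CPM for fibroblasts and 15.2 CPM for B cells, and 0 CPM for endothelial cells, mast cells, neutrophils and erythroid cells.

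T cell genes that the rule did not use had transcripts in some other wells. With wells thinned to 1000 transcripts, Thy1 was found in 94.0% of T cells and in 3.52% of 908 other wells without Langerhans cell-like wells, Ptprc in 82.1 and 2.09%, and Xcl1 in 68.7 and 1.98%. Before thinning, Thy1 was found in 97.0% of T cells and 7.59% of these other wells, which held more transcripts in the median than T cells did.

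Single T cells varied in a small number of genes more than in most. Scaled to 1815 transcripts, 2198 genes with a transcript in at least 10 T cells had a median ratio of variance to mean of 1.41. Kcnq1ot1 had the largest ratio, 121, followed by the ribosomal precursor Rn45s at 103. Gm17821, Mir5109, Vmn2r55 and A630089N07Rik came next with 36.6, 29.8, 26.5 and 19.3, and Gzmc with 17.9 was the first gene known from T cells. These ratios pool plates of unequal level. Within the T cells of single plates, that of Kcnq1ot1 was 48.2 to 92.8 on Troy-EGFP 2 to 4 and 2.25 and 1.12 on traced 1 and 2, and that of Gm17821 18.1 to 27.8 against 1.79 and 2.08. Vmn2r55 had 13.0 to 21.1 against 0.722 and 1.07, and A630089N07Rik 6.76 to 16.7 against 1.10 and 2.09. The ratio of Rn45s ran from 6.25 on Troy-EGFP 2 to 110 on Troy-EGFP 4, and that of Gzmc was 24.4 on traced 1 and 1.49 to 7.90 on the other plates. Kcnq1ot1 took at least 10% of the transcripts in 1 T cell of Troy-EGFP 3 and 7 of Troy-EGFP 4, and in 0 T cells of the other plates. Its level in T cells was 16794, 40781 and 58441 CPM on Troy-EGFP 2 to 4 and 1125 and 1551 CPM on the traced plates. The other wells of the same plates had 14050, 23966, 30293, 1255 and 904 CPM, and these were held down by the limit of 10% set on them.

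**Figure D3:**
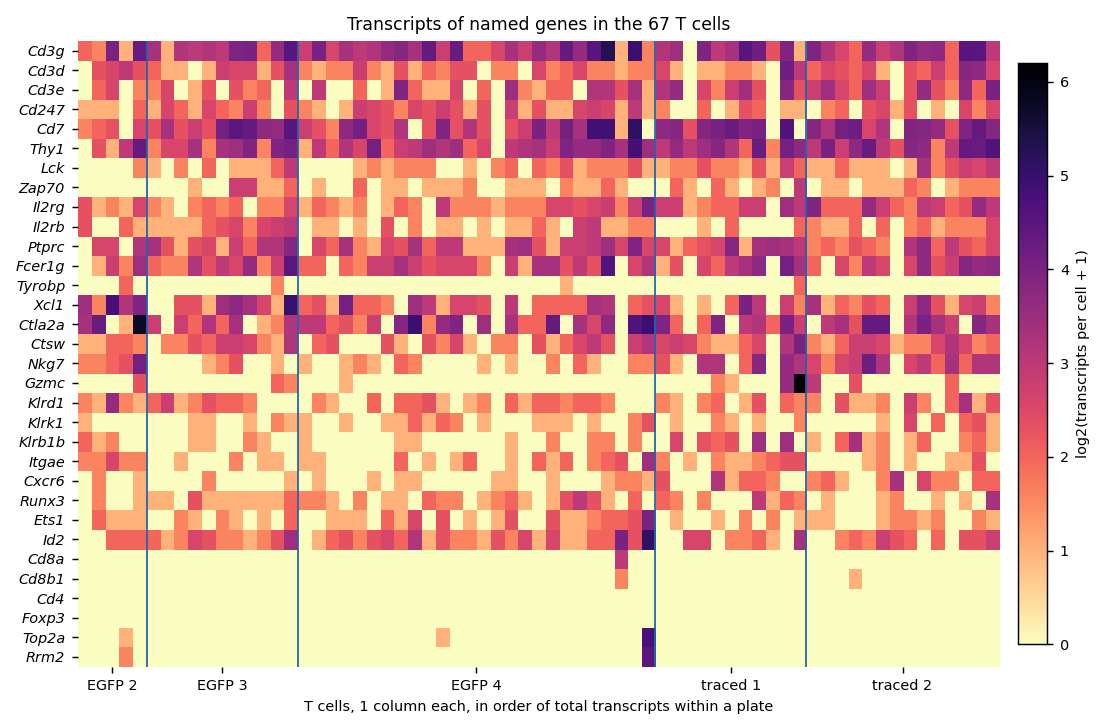
Transcripts per cell on the log2(transcripts + 1) scale for named genes (rows) in the 67 T cells (columns, grouped by plate and ordered by total transcripts). Cd3g and Thy1 are seen in 66 and 65 columns and Gzmc in 11, and Top2a and Rrm2 are high in the last column of Troy-EGFP 4, the deepest T cell.

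The deepest T cell stood apart. It lay on Troy-EGFP 4, held 12521 transcripts, and passed the rule with 5 transcripts of the 4 selecting genes (2.00 of Cd3g, 2.00 of Cd3d, 1 of Cd3e and 0 of Cd7) beside 10.01 of Thy1. It held 26.1 transcripts of Top2a, 26.1 of Stmn1, 22.1 of Pcna, 21.1 of Rrm2 and 7.01 of Mki67, genes of DNA replication and cell division. Top2a, Mki67 and Rrm2 were found in 2, 3 and 1 of the other 66 T cells, with at most 2.00 transcripts, and Pcna and Stmn1 in 21 and 5, with at most 5.00 and 7.01. This cell was singled out after its values were seen.

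Sums over the T cells of each plate were compared between the 2 traced plates and Troy-EGFP 2, 3 and 4, a contrast that the selection did not use. Of 449 genes with enough transcripts, 12 were called at an adjusted p under 0.05 (edgeR quasi-likelihood test, Benjamini-Hochberg), which is 2.67%, with 4 higher (0.891%) and 8 lower (1.78%) in traced T cells. The 30 leading genes were among the 449. Of the 26 that are no selecting genes, 0 were called and 2 had an unadjusted p under 0.05. Their median difference was 0.09 on the log2 scale, against 0.00 for the 449. DESeq2 called 13 of the 449.

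The standard errors of the leading genes were wide. Xcl1 differed by -1.06 ± 0.57 (SE) on the log2 scale (edgeR adjusted p = 0.412), and Nkg7 by 1.38 ± 0.79 (SE; edgeR adjusted p = 0.450). Klrb1b, an inhibitory lectin receptor, differed by 1.97 ± 0.55 (SE) with an edgeR adjusted p of 0.0962, the smallest of the 26. Gzmc differed by 3.63 ± 1.04 (SE; edgeR adjusted p = 0.110), and most of its transcripts were in 1 cell. Of the 11 tested genes of CD3 and receptor signalling that the rule did not use, 0 were called (edgeR), with 3 at an unadjusted p under 0.05.

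The 4 higher genes were Fxyd5, Cxcr6, D17H6S56E-5 and Grap2. A gene was tested where it reached 433 CPM in the T cells of at least 2 plates, and 4 of these 4 did so on the traced plates alone, as 5 of the 8 lower genes did on the Troy-EGFP plates alone. Genes that low elsewhere were admitted by the group in which they are high, so the number of calls is not read as a share of all genes. Fxyd5, a regulator of the sodium pump and of adhesion, stood at 368, 197 and 212 CPM in T cells of Troy-EGFP 2 to 4 and at 1385 and 1702 CPM in those of traced 1 and 2. The difference was 2.58 ± 0.46 (SE) on the log2 scale with edgeR adjusted p = 0.0152, and edgeR adjusted p = 0.183 without the filter that let it in through the traced plates. Its level in other wells was 20.6 to 34.0 CPM on Troy-EGFP plates and 4.00 to 11.1 CPM on traced ones. Cxcr6, the receptor for CXCL16, at 368, 147 and 197 against 909 and 1210 CPM, differed by 2.19 ± 0.49 (SE; edgeR adjusted p = 0.0446). Over 16 alternatives in which it was tested its adjusted p by edgeR or DESeq2 ran from 0.000136 to 0.568, and it was called in 9, with the highest p without the filter.

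The other calls carry a limit from the tables. Grap2, an adaptor of T cell receptor signalling, and D17H6S56E-5 had no row on Troy-EGFP 3 and 4, where they enter as 0. Grap2 had 0 CPM in T cells of Troy-EGFP 2, and 476 and 1210 CPM on the traced plates, with 0 in other wells of each plate. D17H6S56E-5 had 368 CPM on Troy-EGFP 2 and 1082 and 1513 CPM on the traced plates, with 318, 1165 and 1105 CPM in other wells. Xist, transcribed from the inactive X of female cells, had a row on Troy-EGFP 3 and 4 and on no other plate, whereas the Y-linked Ddx3y had none on these 2. In these sex-linked genes both traced plates were like Troy-EGFP 2 and unlike Troy-EGFP 3 and 4, and the part of sex in the 12 calls was not tested.

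The 8 lower genes were Rpl14, A130077B15Rik, Gm10785, Grk4, Gm17821, Vmn2r55, A630089N07Rik and Synj2bp. Gm17821 fell from 7872, 14629 and 18303 CPM in T cells of Troy-EGFP 2 to 4 to 216 and 643 CPM in traced T cells, a difference of -5.08 ± 0.92 (SE; edgeR adjusted p = 0.0155). In other wells of the same plates it stood at 6448, 8135 and 9647 against 606 and 349 CPM. Rpl14, a ribosomal protein gene, had 245, 984 and 926 CPM in Troy-EGFP T cells and 0 in both traced ones, with 859 to 2332 and 156 to 194 CPM in other wells. Each of the 8 was also lower in the other wells of both traced plates than in those of Troy-EGFP 2 to 4. Kcnq1ot1, the marker of necrotic cells, moved with them in T cells, by -4.99 ± 1.26 (SE; edgeR adjusted p = 0.0679), and its part in the 8 calls was not tested beyond leaving out the T cells richest in it, with which 11 genes were called, 2 higher and 9 lower, 10 of the 12 among them.

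The number of calls moved with the plates and wells that entered. Each of the 12 genes kept its direction in the alternatives in which it was tested. The 12 were picked for their difference on these same plates, so nothing is read from the kept directions. The difference of Fxyd5 ran from 2.34 to 2.904 on the log2 scale, that of Cxcr6 from 1.94 to 2.53, that of Synj2bp from -3.11 to -2.66 and that of Grk4 from -5.85 to -4.68. Without Troy-EGFP 3 or without Troy-EGFP 4, edgeR called 0 genes, with 56 and 35 at an unadjusted p under 0.05. Without traced 1, 15 were called, 8 of the 12 among them, without traced 2, 2 were, with 1 of the 12, and without Troy-EGFP 2, which had 5 T cells, 83 were, among them 12 of the 12. Limiting T cells to those with at least 6 selecting transcripts gave 79 calls and a minimum of 2000 transcripts per well gave 24, with 11 and 10 of the 12 among them. Either limit left Troy-EGFP 2 with under 5 T cells, so these fits, too, were without that plate. Without the deepest T cell 9 genes were called, 8 lower and 1, Fxyd5, higher, and the adjusted p of Cxcr6, D17H6S56E-5 and Grap2 was 0.0620 each (edgeR).

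**Figure D4:**
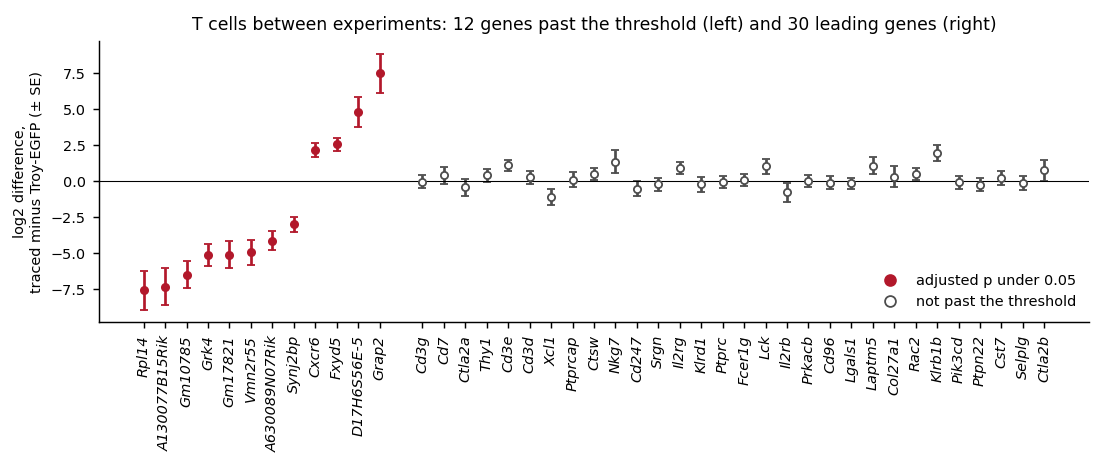
Log2 difference of T cell levels, traced minus Troy-EGFP plates (2 and 3 plates), with SE, for the 12 genes called by edgeR (filled) and the 30 leading genes (open). The called genes lie at -2.97 or below or at 2.19 or above, and the leading genes between -1.06 and 1.97.

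Whether a difference between experiments was larger in T cells than in other wells was tested by the interaction of cell class and experiment, with plate as a factor. Of 5762 genes, 14 were called (0.243%; edgeR, adjusted p under 0.05), 13 of them with the more positive difference in T cells (0.226%) and 1, Top2a, with the more negative (0.0174%). They include Ptprc, Fcer1g, Laptm5 and Klrb1b of the leading genes. Langerhans cell-like wells, in which Ptprc, Fcer1g and Laptm5 also have transcripts, were 39 of the other wells on Troy-EGFP plates and 2 on traced ones. With these wells left out of the other wells, 1 gene was called, Mir6240, which has no row on Troy-EGFP 3 and 4. The T cell levels of Ptprc were 2208, 3051, 2050, 2901 and 2194 CPM, while those of other wells were 70.6, 66.2, 97.5, 9.90 and 4.00 CPM.

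The bulk libraries took no part in the selection and hold T cell transcripts among those of all sorted cells. They held 157537 to 453005 counts each. In bulk samples, fewer T cells and less T cell RNA per cell cannot be told apart. Summed over Cd3d, Cd3e, Cd3g and Cd7, the viable libraries of mouse 1 and 2 had 15 and 16 counts (49.2 and 35.3 CPM), the ITGA6bright EGFP- libraries 21 and 10 (133 and 53.1 CPM) and the ITGA6bright EGFP+ libraries 1 and 1 (2.48 and 4.22 CPM). EGFP+ libraries were thus below the others in both mice. Xcl1 had 10 and 13 counts in viable, 14 and 4 in EGFP- and 0 and 0 in EGFP+ libraries, and the latter 0s allow up to 3 counts per library.

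At these depths 4 of the 30 leading genes passed the filter on low counts: Ctla2a, Ptprc, Prkacb and Thy1. From EGFP- to EGFP+ cells, 2 of the 4, Ptprc and Ctla2a, were lower, while 4.06% of all 4653 genes were lower and 7.05% changed (edgeR). These 2 reached the filter's level of 36.9 CPM in the EGFP- libraries alone, so they were tested because of the group in which they are high, and nothing is read from their count. Ptprc had 18 and 16 counts in EGFP- and 1 and 0 in EGFP+ libraries, a log2 difference of -5.73 ± 0.79 (SE; edgeR adjusted p = 7.24e-05), lower in 2 of 2 mice. Ctla2a had 8 and 10 against 1 and 3 counts, a log2 difference of -3.03 ± 0.79 (SE; edgeR adjusted p = 0.0230), lower in 2 of 2 mice. Prkacb, a catalytic subunit of protein kinase A, differed by -0.81 ± 0.34 (SE; edgeR adjusted p = 0.168). Thy1 had 29 and 16 counts in EGFP- and 119 and 47 in EGFP+ libraries, a log2 difference of 0.83 ± 0.37 (SE; edgeR adjusted p = 0.1999), so that its level did not go with that of the CD3 genes. Ptprc is also transcribed in Langerhans cell-like wells, at 852 CPM, and their part in its difference was not tested.

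Against viable cells the bulk differences were smaller. In EGFP+ cells 0 of the 4 genes were called (edgeR; 0.473% of 4653 genes were), with 2 at an unadjusted p under 0.05. Ptprc, with 10 and 13 counts in viable cells, differed there by -3.92 ± 0.92 (SE; edgeR adjusted p = 0.0661), and with the mouse as a block 1 of the 4 was called and 49 in place of 22 of all genes. In EGFP- cells Ptprc, which had passed the filter through these libraries, was higher by 1.81 ± 0.46 (SE; edgeR adjusted p = 0.0457), while 0.924% of 4653 genes were higher and 1.78% changed. It was tested because of the group in which it is high, so nothing is read from this call. With the mouse as a block 163 in place of 83 of all genes changed. DESeq2 called 0 of the 4 in that comparison, with 42 of all genes, and 1 of the 4 from EGFP- to EGFP+ cells, with 158 of all genes.

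**Figure D5:**
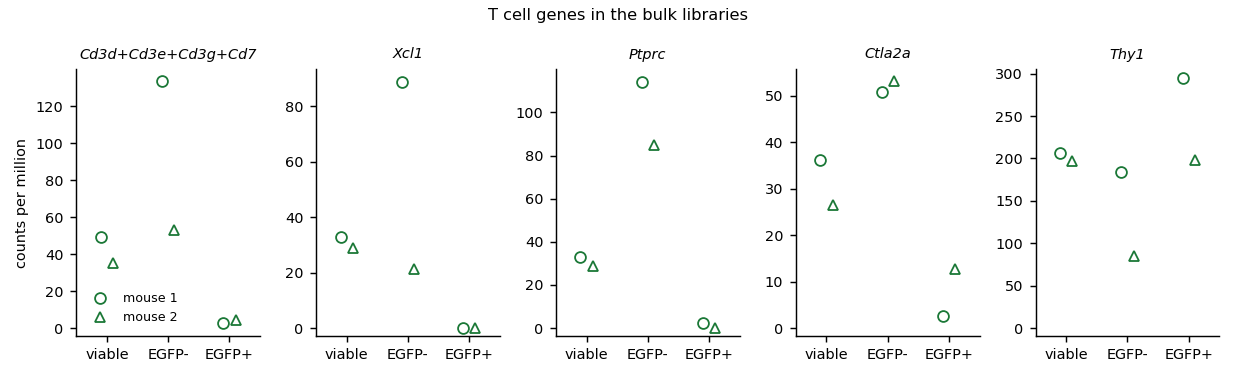
CPM of Cd3d, Cd3e, Cd3g and Cd7 together, and of Xcl1, Ptprc, Ctla2a and Thy1, in the bulk libraries of viable, ITGA6bright EGFP- and ITGA6bright EGFP+ cells, with 1 point per mouse (circle for mouse 1, triangle for mouse 2). In the first 4 panels both EGFP+ points lie below the other points, and in the Thy1 panel they do not.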

How the data were processed

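Single epidermal cells were processed by SORT-seq and bulk populations by CEL-Seq2. As single-cell values, the authors deposited transcripts estimated from random barcodes, corrected for repeated draws, by gene and well. The deposited values turned back into whole barcodes for 6 bases, although the labels give a shorter barcode. For bulk libraries the authors deposited whole-number read counts per gene, without normalization. Per the submitters' processing notes the tools and builds include BWA 0.6.2-r126, mm10, GRCm38 and, for bulk libraries, hg19. All 384 well numbers recur on each plate, spike-in and mitochondrial rows were dropped, and no doublet caller was run.

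Estimated transcripts were summed over the T cells, and over the other wells, of each plate. Differences between T cells and other wells used a pseudocount of 20 CPM and no test. The 2 plate types were compared over plates with at least 5 T cells by the quasi-likelihood test of edgeR 4.0.16 (R 4.3.3; filterByExpr, then TMM factors, then Benjamini-Hochberg adjustment at 0.05) on rounded sums, since the values are no plain counts, and the bulk counts in the same way with 1 mean per population. Shares of T cells were compared by exact permutation over plates. The plate is taken as 1 mouse. DESeq2 1.42.0, other filters, other limits on T cells and leaving out each plate or library were alternatives. In simulated data, edgeR recovered 56.1% of 189 tested genes changed 4-fold between experiments (529 genes tested), 63.5% of 200 changed 8-fold in the interaction (5002) and 59.8% of 199 changed 4-fold in bulk (4648). False calls among the unchanged genes numbered 6, 0 and 8, in the same order.

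The members and the gene lists were chosen with earlier results of these data known. Named are members of the lists, the 30 leading genes, genes called between experiments and, in the bulk, leading genes that passed the filter. Bulk populations of a number come from the same mouse and so are paired. Deviations of the same mouse from the population means correlated by 0.0521 to 0.0900 across genes.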

Additional observations from a re-analysis of the deposited data

Results flagged for a closer look

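In the interaction of cell class and experiment, 14 genes differed in T cells by another amount than in other wells of the same plates (edgeR, adjusted p under 0.05). All values are log2 differences, traced minus Troy-EGFP, in T cells minus those in other wells. They were 4.56 for Rgs2 (edgeR adjusted p = 1.40e-06), 3.89 for Lcp1, 4.57 for Fxyd5, 3.34 for Fcer1g, 3.54 for Ptprc, 4.97 for Runx3 and 3.23 for Laptm5. They were 8.29 for Gpr141, 4.59 for Lsp1, 4.63 for Prkcb, 6.04 for Klrb1b and 2.47 for Cd52. Without the Langerhans cell-like wells these 12 fell below the threshold, with values from 0.31 for Cd52 to 5.47 for Klrb1b.

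Top2a, with -10.53, stood at 123, 0 and 411 CPM in T cells of Troy-EGFP 2 to 4 and at 0 CPM in those of both traced plates, and 26.1 of its transcripts were in the deepest T cell of Troy-EGFP 4. Without that cell Top2a kept its direction and was no longer called. Mir6240 had 3.99, and 4.00 without the Langerhans cell-like wells. It has no row on Troy-EGFP 3 and 4, and on Troy-EGFP 2 it had 1349 CPM in T cells and 11535 CPM in other wells.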

How the results depend on the processing

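The share of T cells, 0.811 percentage points higher on traced plates, turned to -3.16 with other wells of the T cells' well numbers, and ran from -0.886 (without Troy-EGFP 1) to 2.64 over plates left out, with -0.287 without traced 2. Genes called between experiments, 12, numbered 79 with 6 or more selecting transcripts, 24 with 2000 or more transcripts per well, 22 without the filter, and 0 to 83 over plates left out. The 14 interaction calls numbered 9, 5 and 8 under the same settings, 1 without Langerhans cell-like wells, 38 with other wells of the T cells' well numbers, 23 scaled by total alone and 0 to 13 over plates left out. There Mir6240 turned to -0.45 with 6 or more selecting transcripts, -0.24 with 2000 transcripts, -1.90 in DESeq2, and -0.65 to 4.16 over plates left out. Of the leading genes in bulk, 2 of 4 were called from EGFP- to EGFP+ (328 of all 4653 genes) and 1 of 4 in DESeq2 (158 of 4653). Without the filter 9 of 29 were called (409 of all 16214 genes), and with these 2 populations alone 1 of 4 (151 of 3477). Between EGFP+ and viable cells 0 of 4 were called (22 of 4653) and 1 with the replicate block (49 of 4653). Without the filter 2 of 29 were (43 of 16214), and with these populations alone 2 of 4 (66 of 4969). Between EGFP- and viable cells 1 of 4 was called (83 of 4653), 0 in DESeq2 (42 of 4653) and 0 with these populations alone (38 of 3918). The cause was not tested, save that fewer plates or wells enter some fits. With 6 or more selecting transcripts, or with 2000 or more transcripts per well, Troy-EGFP 2 had under 5 T cells and did not enter. The mouse as a block changed no other count of called leading genes in bulk, while calls over all genes rose from 328 to 468 from EGFP- to EGFP+, from 22 to 49 between EGFP+ and viable and from 83 to 163 between EGFP- and viable cells. No paired analysis of the 2 experiments was possible because their plates come from different mice, of different genotype. Settings for the other wells or T cells of low Kcnq1ot1, the deepest cell and well numbers were chosen after seeing the data. Of the 30 leading genes, 22 to 30 were kept under 17 settings. With 67 cells and 5 plates, 449 genes passed the filter on low values, against 10409 tested without it.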
